A study of Mus musculus with 21 samples.

Results

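The inflammasome is the platform on which macrophages switch on caspase-1, and it was followed here through 10 genes: the sensors Nlrp3, Nlrc4, Naip5, Nlrp1b, Aim2 and Mefv, the adaptor Pycard, the caspases Casp1 and Casp4, and the pore-forming gasdermin Gsdmd. They were taken by name from the 23250 genes of the deposited count table, and all 10 were found and passed the filter on low counts. The cells were bone-marrow-derived macrophages of C57BL/6J mice, grown for 7 days with the supernatant of a line that makes GM-CSF, and the series describes them as deficient for the mannose receptor (Mrc1) in every group. One group was left untreated (0 h), and the other groups received either FcMR, the extracellular region of the mannose receptor joined to the Fc region of human IgG1, or an isotype control, each for 4, 12 or 24 h. Each of the 7 groups held 3 libraries, 21 in all, and the study asked what soluble mannose receptor does to macrophages. The labels do not say whether replicates came from separate mice or cultures, so the p-values measure the spread between these libraries, which may be technical.

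Inflammasome sensors recognise different signs of infection or damage and most recruit caspase-1, directly or through the adaptor ASC, the product of Pycard. Active caspase-1 matures interleukin-1 beta and interleukin-18 and cuts gasdermin D, whose fragment opens pores in the plasma membrane and causes the lytic death called pyroptosis. In macrophages the amount of the sensors and of the interleukin-1 precursor is set by a first, priming signal that acts on transcription, and a separate second signal assembles the complex. RNA levels bear on the first of these steps only. Bulk RNA also cannot tell fewer cells of a type from less RNA per cell.

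Library totals ran from 5532225 to 66729533 counts, and replicates of a group correlated at 0.92 or more on log2 CPM (counts relative to the total of the library, with TMM factors). All 7 macrophage markers were present, with Lyz2 at 16643 to 30533 CPM, while Cd3e, a T cell marker, was at 0 to 0.224 CPM. Of the 6 dendritic cell markers, Itgax (853 to 1233 CPM), H2-Ab1 (572 to 2461) and Ccr7 (238 to 705) were high. Zbtb46 (17.3 to 50.2), Flt3 (2.04 to 31.8) and Cd209a (0 to 19 CPM) were low. Summed neutrophil and granulocyte-precursor markers (9 of 9 in the table) stood at 1422 to 1651 CPM in untreated cells. By 24 h they were at 203 to 238 CPM with isotype and at 226 to 247 CPM with FcMR. Summed mast cell and eosinophil markers (3 of 4 in the table) went from 586 to 779 CPM to 60.6 to 97.2 and 58.4 to 87.9 CPM in the same groups. Prg2 and Epx (552 and 119 CPM untreated) dominate this sum. Cpa3 was at 13.8 CPM untreated, 14.4 and 14.8 CPM at 4 h and 2.9 and 3.11 CPM at 24 h (isotype, FcMR). Single markers can differ from the sums: Csf3r, a neutrophil marker, was at 26.2 CPM untreated, 40.4 CPM with FcMR at 12 h and 19.3 CPM at 24 h. Libraries also differed within groups in a tilt with GC content, the mean log2 deviation of the GC-richest 10% of genes minus that of the poorest 10%. This tilt ran from -1.61 (isotype 4 h replicate 2) to 0.841 (isotype 12 h replicate 3). Isotype 4 h replicate 3 (0.629) and FcMR 12 h replicate 1 (-0.735) stood apart from their replicates, and the numbers of these 2 libraries in the titles stand in each other's place. Without both, 5 members in place of 4 passed the FcMR test at 4 h, and the same 7 passed at 12 h. Nlrp3 was at 182 CPM in FcMR 12 h replicate 1, beside 183 and 193 CPM in its replicates. In isotype 4 h replicate 3 it was at 286 CPM, beside 267 and 218 CPM. An exchange of the 2 libraries was not tested.

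Promoter sequence is shown for 4 members that cover the range of responses described below: Casp4 and Nlrp3, which were higher with FcMR at every time, Casp1, which was higher at 12 and 24 h, and Nlrp1b, which was lower at every time. The sequences are from RefSeq (build GRCm38.p6), run 5′ to 3′ on the strand of the gene and end at the base before the annotated start. Capitals mark matches, on either strand, to 5 motifs: the NF-kappaB consensus, the interferon-stimulated response element core (GAAA, any 2 bases, GAAA), the STAT site TTCNNNGAA, the PU.1 core GAGGAA and the TATA box TATAAA. Of 10 members, 9 had an entry in the RefSeq table, and Gsdmd had none. For Casp1 and Nlrp1b the RefSeq start was also the gene start in the annotation used for positions. For Nlrp3 and Casp4 it was the start of the transcript used for length, which lies inside the gene. The Nlrp3 gene starts at 59541568, before its window, so that window lies inside the annotated gene. The Casp4 gene starts at 5308828, within the end of its window. For Aim2 the RefSeq start lay 69725 bases from the gene start and for Naip5 1013 bases, so their windows may belong to other transcripts.
Casp4, chr9:5308599-5308848, plus strand: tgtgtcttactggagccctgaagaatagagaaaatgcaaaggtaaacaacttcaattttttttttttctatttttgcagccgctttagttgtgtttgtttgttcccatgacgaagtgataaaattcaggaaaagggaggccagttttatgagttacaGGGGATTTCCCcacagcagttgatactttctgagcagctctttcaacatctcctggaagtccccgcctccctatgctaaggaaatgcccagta
Nlrp3, chr11:59542436-59542685, plus strand: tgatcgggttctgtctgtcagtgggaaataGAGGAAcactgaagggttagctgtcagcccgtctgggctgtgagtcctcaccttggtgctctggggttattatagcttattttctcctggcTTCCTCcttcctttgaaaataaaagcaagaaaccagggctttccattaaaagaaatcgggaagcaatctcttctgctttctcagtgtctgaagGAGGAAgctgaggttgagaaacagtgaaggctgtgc
Casp1, chr9:5298267-5298516, plus strand: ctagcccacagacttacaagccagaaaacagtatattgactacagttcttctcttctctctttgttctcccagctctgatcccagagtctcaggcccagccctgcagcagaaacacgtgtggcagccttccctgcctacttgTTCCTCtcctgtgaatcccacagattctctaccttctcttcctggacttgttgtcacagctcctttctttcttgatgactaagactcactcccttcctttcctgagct
Nlrp1b, chr11:71230734-71230983, minus strand: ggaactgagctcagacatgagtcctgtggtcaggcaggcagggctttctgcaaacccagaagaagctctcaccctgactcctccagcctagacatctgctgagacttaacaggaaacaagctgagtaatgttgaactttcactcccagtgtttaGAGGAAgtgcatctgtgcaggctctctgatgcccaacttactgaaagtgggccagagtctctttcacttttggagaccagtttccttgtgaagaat
Casp4 held overlapping matches to the NF-kappaB consensus on both strands, between positions -93 and -83 from the start. Of all 32817 promoter windows of this length, 3.9% held such a match, and among the members Naip5 also had one. The PU.1 core, bound by a factor that macrophages need, was matched in the windows of Nlrp3 (3 times), Aim2 (2 times), Nlrp1b, Pycard and Casp1, against 23.3% of all windows. Neither the interferon core (2.97% of all windows) nor the STAT site (7.01%) was matched in any of the 9, and the TATA box (12.4%) was matched in Naip5 alone. A match describes the letters of the window and no binding was measured, and a window without a match lacks those letters only.

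Against the isotype control of the same time, the RNA of Nlrp3, Mefv and Casp4 was higher and that of Nlrp1b lower with FcMR at 4, 12 and 24 h. Nlrc4 and Casp1 were higher and Pycard was lower at 12 and 24 h. Aim2, Naip5 and Gsdmd did not pass the test at any time. At 4 h 3 of the 10 members were called higher and 1 lower by edgeR's quasi-likelihood test (a Benjamini-Hochberg adjusted p below 0.05). Of all 13468 genes tested 17.7% were called, 8.62% higher and 9.13% lower. At 12 h 5 members were higher (8.61% of all genes) and 2 lower (7.49%), with 16.1% of all genes called. The counts at 24 h were again 5 (11.4% of all genes) and 2 (9.44%), with 20.9% called. The members' median log2 fold change was 0.20, 0.46 and 0.41 at the 3 times, beside -0.073, -0.017 and 0.0064 over all genes tested. The libraries of both groups did not overlap for 5, 7 and 7 members, against 29.7%, 35.4% and 34.4% of all genes.

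**Figure D1:**
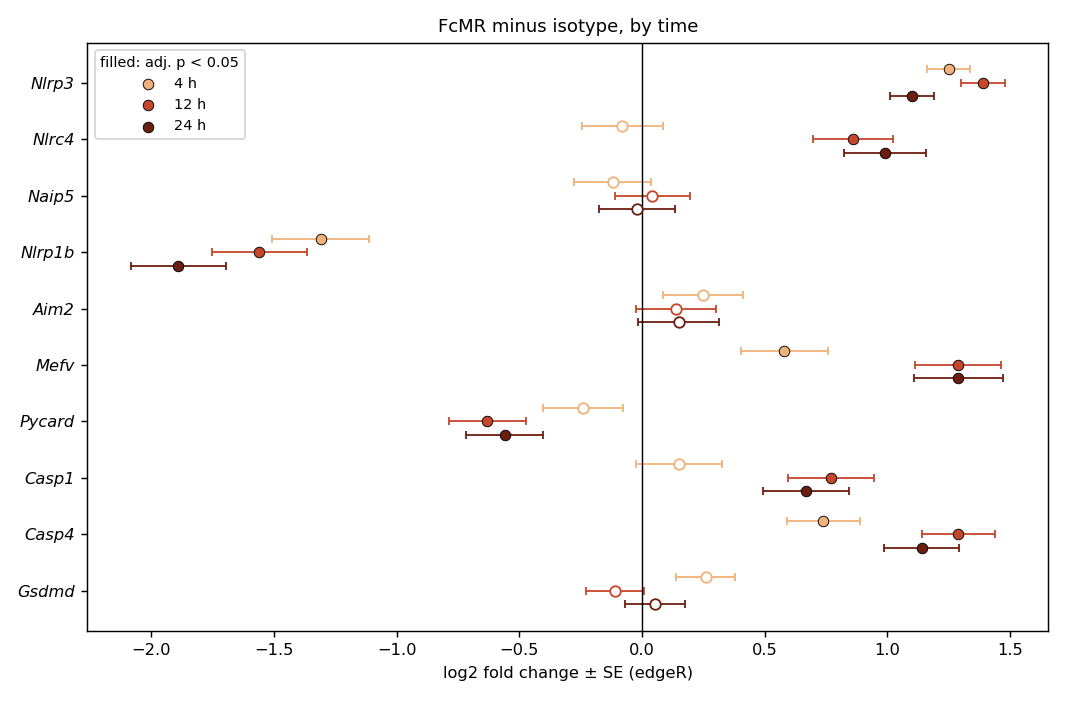
FcMR minus isotype log2 fold change (x axis) of the 10 members (rows) at 4, 12 and 24 h, with bars of 1 standard error; filled points passed an adjusted p of 0.05. Nlrp3, Mefv and Casp4 lie right of 0 at every time, Nlrp1b lies left of 0 at every time, and Aim2, Naip5 and Gsdmd have open points throughout.

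Nlrp3 (ENSMUSG00000032691.14, GRCm38 chromosome 11, 59541568 to 59566956, plus strand) encodes the sensor that responds to potassium loss, crystals and many kinds of membrane damage. At 4 h it was at 267, 218 and 286 CPM in the isotype libraries and at 585, 623 and 630 CPM in the FcMR libraries. At 12 h these values were 70.4, 71.1 and 70.9 against 182, 183 and 193 CPM, and at 24 h 55.5, 59.0 and 62.6 against 123, 121 and 135 CPM. Every FcMR library lay above every isotype library of its time, while the level itself fell in both arms. The fold was therefore similar at the 3 times although the amounts were not. It was 2.38-fold higher at 4 h (log2 1.25, SE 0.0886, adjusted p = 4.11e-08), 2.63-fold at 12 h (log2 1.39, SE 0.0894, 9.56e-09) and log2 1.10 at 24 h (SE 0.0898, 6.95e-08). Ordered by mean level, FcMR 4 h stood highest, followed by isotype 4 h, FcMR 12 h, untreated, FcMR 24 h, isotype 12 h and isotype 24 h. Only the libraries of FcMR 12 h and untreated overlapped among neighbours in that order.

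Mefv (ENSMUSG00000022534.13, chromosome 16, 3707218 to 3718097, minus strand) encodes pyrin, which senses the effects of bacterial toxins that disturb the cytoskeleton. Its isotype libraries at 4 h were at 37.8, 29.6 and 37.9 CPM and its FcMR libraries at 43.1, 52.6 and 63.2 CPM. At 12 h the isotype libraries held 20.4, 24.5 and 29.7 CPM and the FcMR libraries 58.4, 58.4 and 66.6 CPM. At 24 h they held 15.1, 16.8 and 21.5 against 36.3, 46.3 and 48.0 CPM. The groups did not overlap at any time, and the gap was smallest at 4 h. The log2 difference was 0.58 (SE 0.177, adjusted p = 0.0285) at 4 h and 1.29 at both 12 h (SE 0.175, 3.94e-05) and 24 h (SE 0.181, 3.9e-05). The 4 h call was lost when only the libraries compared were fitted (adjusted p = 0.101). It was also lost without isotype 4 h replicate 2 (0.0944), FcMR 4 h replicate 2 (0.0716) or FcMR 4 h replicate 3 (0.0809).

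Nlrp1b (ENSMUSG00000070390.12, chromosome 11, 71153102 to 71230733, minus strand) encodes a sensor that is switched on when pathogen proteases cut it. Its counts ran from 17 to 445 per library. Per kilobase of transcript its mean was the lowest of the 10 genes in each group, though at 24 h with isotype (3.11 ± 0.543 CPM per kb, SD, n = 3) it did not differ from Nlrc4 (3.14 ± 0.0852) beyond the spread. Isotype libraries held 10.5, 9.56 and 7.65 CPM at 4 h, and FcMR libraries 4.39, 3.42 and 3.17 CPM. The corresponding levels at 12 h were 8.69, 7.33 and 6.74 against 2.42, 2.53 and 2.72 CPM. At 24 h they were 15.4, 10.8 and 14 against 3.7, 4.23 and 2.68 CPM. All FcMR libraries lay below all isotype libraries, and indeed below the untreated ones (6.70 to 8.55 CPM). The difference was -1.31 (SE 0.197, adjusted p = 0.000145), -1.56 (SE 0.195, 1.6e-05) and -1.89 on the log2 scale (SE 0.193, 1e-06) at 4, 12 and 24 h. Nlrp1a, a close relative whose reads may not be fully separable from those of Nlrp1b, differed by -0.62 at 4 h (adjusted p = 0.0438), -0.48 at 12 h (0.112) and -0.40 at 24 h (0.175).

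Nlrc4 (ENSMUSG00000039193.7, chromosome 17, 74425438 to 74459142, minus strand) encodes the adaptor-like sensor that NAIP proteins engage once they have bound flagellin or parts of bacterial secretion systems. Isotype and FcMR libraries overlapped at 4 h, with 29.3, 32.3 and 20 CPM against 27.8, 25.4 and 23.5 CPM. They were apart at 12 h, with 18, 19.5 and 18.5 against 38.8, 30.6 and 31.9 CPM. They were apart again at 24 h, with 15.3, 14.7 and 14.5 against 29.0, 34.8 and 24.3 CPM. Nlrc4 thus differed at the later times, by 0.86 at 12 h (SE 0.164, adjusted p = 0.00108) and 0.99 at 24 h (SE 0.168, 0.00029) on the log2 scale, while the 4 h value was -0.08 (SE 0.166, 0.811). An annotated processed pseudogene, CT033749.1, lies within the Nlrc4 gene on the same strand.

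Naip5 (ENSMUSG00000071203.6, chromosome 13, 100211739 to 100246323, minus strand), the flagellin receptor that acts upstream of Nlrc4, showed log2 differences of -0.12 (SE 0.157), 0.043 (SE 0.154) and -0.019 (SE 0.155) with adjusted p of 0.676, 0.919 and 0.961. Its levels ran from 33.3 to 49.4 CPM over the isotype libraries and from 33.7 to 52.6 CPM over the FcMR libraries, and they overlapped at all 3 times. Reads shared by Naip5 and its relatives Naip1, Naip2 and Naip6 can be divided differently by the quantification, which was not tested. Of these, Naip2, which recognises a rod protein of bacterial secretion systems, rose with FcMR by 0.48 at 12 h (SE 0.107, adjusted p = 0.0039) and by 1.15 at 24 h (SE 0.109, 4.04e-07), from 156 ± 9.33 to 346 ± 36.9 CPM (SD, n = 3) at 24 h. Naip1 was higher at 24 h only (log2 0.96, adjusted p = 0.000882), and Naip6 did not pass at any time, with values of -0.18, -0.26 and -0.11. The relatives Naip1, Naip2, Naip6 and Nlrp1a were singled out after their values had been seen.

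Aim2 (ENSMUSG00000037860.15, chromosome 1, 173350879 to 173466040, plus strand) encodes the sensor of double-stranded DNA in the cytosol. At 4 h its isotype libraries were at 85.0, 98.0 and 62.3 CPM and its FcMR libraries at 104, 92.9 and 93.7 CPM, which overlapped. The differences were 0.25 (SE 0.163, adjusted p = 0.342), 0.14 (SE 0.164, 0.687) and 0.15 (SE 0.165, 0.593) at 4, 12 and 24 h. The low isotype value at 4 h came from replicate 3, the library whose GC tilt stood apart. With a correction of each library for GC content the 4 h difference was 0.35 and passed (adjusted p = 0.000374), whereas without that replicate it was 0.082 (0.738). The annotation places Cadm3 across part of Aim2, facing the other way, and whether these libraries keep strand is not given in the sources used here.

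The adaptor Pycard (ENSMUSG00000030793.4, chromosome 7, 127989708 to 127993867, minus strand), which links sensors to caspase-1 and assembles into the large aggregates known as specks, moved opposite to Nlrp3. Isotype libraries held 113, 107 and 117 CPM at 12 h against 61.9, 70.6 and 86.0 CPM with FcMR. At 24 h the values were 117, 108 and 106 against 74.3, 56.0 and 95.9 CPM. Each FcMR library was below each isotype library at these times, whereas 4 h values overlapped (42.7, 39.5 and 51.3 against 38.4, 39.9 and 34.7 CPM). The log2 difference was -0.24 at 4 h (SE 0.163, adjusted p = 0.357), -0.63 at 12 h (SE 0.157, 0.00919) and -0.56 at 24 h (SE 0.158, 0.0168). The 12 h call was lost on the authors' normalized values (limma, -0.50, adjusted p = 0.178) and without FcMR 12 h replicate 1 (-0.52, 0.053). The 24 h call was lost with only the compared libraries fitted (-0.57, 0.0784) and with the GC correction (-0.63, 0.0501), where the difference was no smaller. It was also lost without isotype 24 h replicate 1 (-0.50, 0.0757), FcMR 24 h replicate 1 (-0.54, 0.057) or FcMR 24 h replicate 2 (-0.37, 0.0831). A gene of unknown coding status, Gm45205, is annotated across Pycard on the opposite strand.

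Casp1 (ENSMUSG00000025888.5, chromosome 9, 5298517 to 5307265, plus strand) encodes the protease that inflammasomes activate. Isotype and FcMR levels overlapped at 4 h, with 148, 154 and 120 CPM against 148, 152 and 170 CPM. At 12 h they were 132, 140 and 147 against 292, 215 and 210 CPM, and at 24 h 108, 109 and 115 against 174, 234 and 120 CPM. The later FcMR libraries were all above their controls but scattered more, with an SD of 57.5 CPM at 24 h against 3.59 CPM for isotype. The difference was 0.15 (SE 0.176, adjusted p = 0.621), 0.77 (SE 0.176, 0.00438) and 0.67 (SE 0.176, 0.0102). At 24 h it did not pass without FcMR 24 h replicate 2, the highest library (log2 0.41, adjusted p = 0.101), nor when only the compared libraries were fitted (0.081). The 4 h difference passed with the GC correction (log2 0.25, adjusted p = 0.0341).

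Casp4 (ENSMUSG00000033538.13, chromosome 9, 5308828 to 5336783, plus strand) is the next gene on the same chromosome and encodes caspase-11, which binds bacterial lipopolysaccharide in the cytosol and cuts gasdermin D without a sensor of the NLR type. Levels at 4 h were 114, 124 and 99.8 CPM with isotype and 168, 181 and 214 CPM with FcMR. They fell to 52.0, 60.7 and 58.0 against 163, 129 and 126 CPM at 12 h. By 24 h they were 30, 28.5 and 34.4 against 68.2, 83.3 and 52.4 CPM. No FcMR library overlapped its control at any time. The log2 difference was 0.74 at 4 h (SE 0.148, adjusted p = 0.00186), 1.29 at 12 h (SE 0.150, 7.16e-06) and 1.14 at 24 h (SE 0.153, 2.45e-05).

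Gsdmd (ENSMUSG00000022575.4, chromosome 15, 75862327 to 75867408, plus strand), the pore former that both caspases cut, had differences of 0.26 (SE 0.121, adjusted p = 0.16), -0.11 (SE 0.120, 0.651) and 0.053 (SE 0.121, 0.83). At 4 h the FcMR libraries (135, 146 and 135 CPM) lay just above the isotype libraries (123, 92.9 and 132 CPM), and at 12 and 24 h the groups overlapped. The 4 h difference passed with DESeq2 (log2 0.33, adjusted p = 0.0481), without isotype 4 h replicate 3 (0.37, 0.0492) and with the GC correction (0.18, 0.0334).

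**Figure D2:**
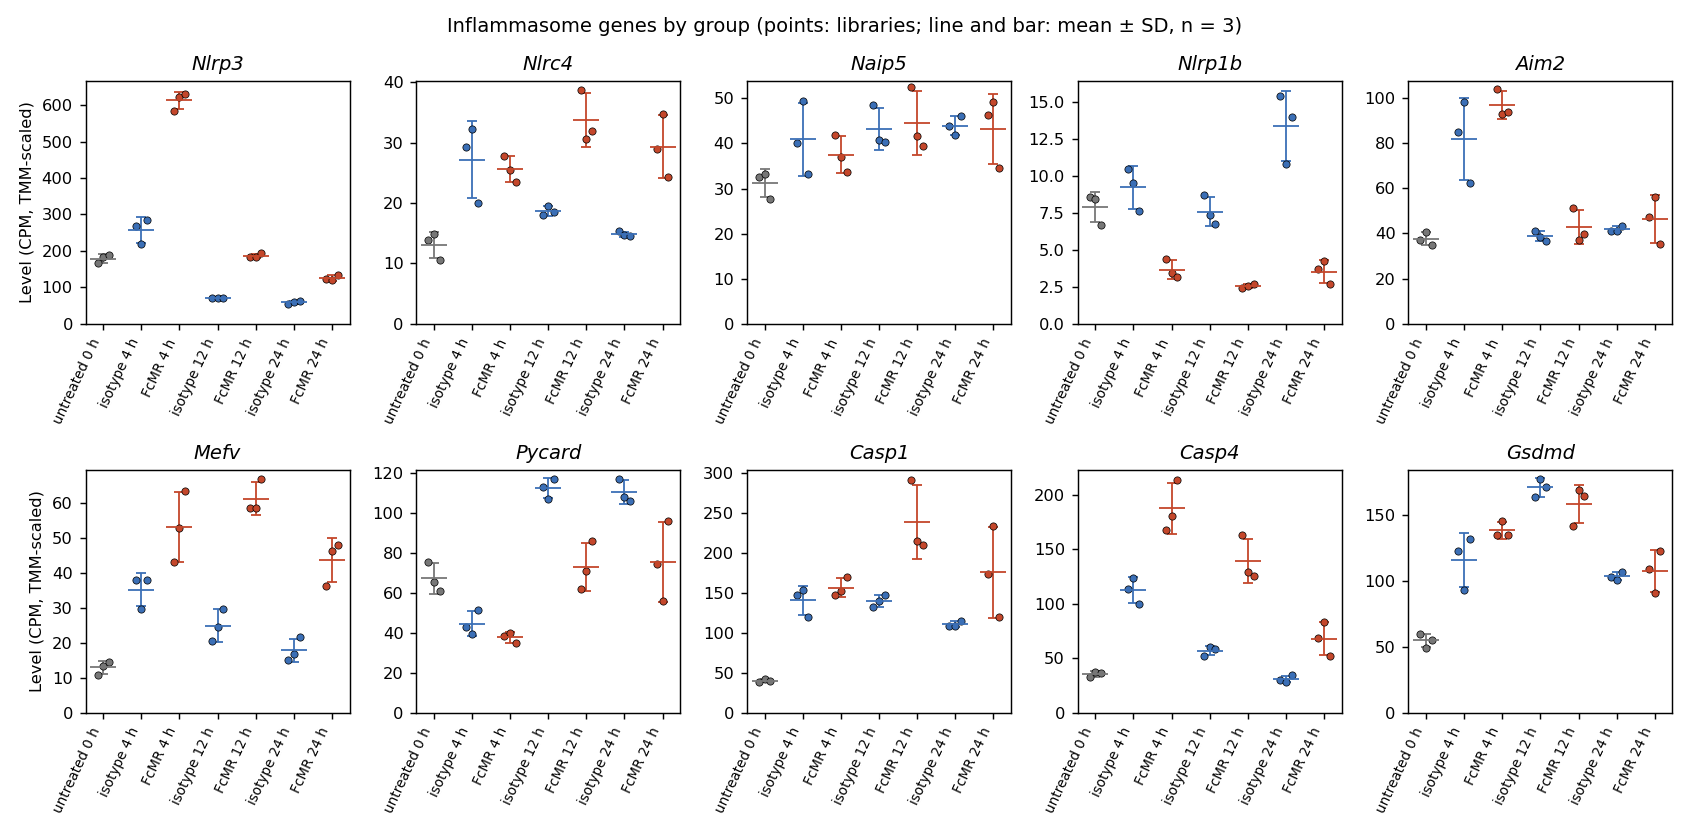
Level of each member in CPM (y axis, linear, from 0) by group (x axis), 1 panel per gene; points are libraries, horizontal lines group means and bars 1 SD (n = 3). The 3 FcMR libraries of Nlrp3 lie above the isotype libraries at each time while both arms fall, and those of Nlrp1b lie below every isotype and untreated library.

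Whether the FcMR difference changed with time was tested directly with both later times set against 4 h. Nlrc4 alone passed (adjusted p = 0.00955), against 11% of all genes tested, with a log2 difference of -0.08 at 4 h and 0.99 at 24 h. For the other 9 members the test did not pass, with adjusted p from 0.0951 (Mefv) to 0.961 (Aim2). Aim2 passed with the GC correction (change from 4 to 24 h -0.33, adjusted p = 0.0104), and Mefv with the replicate number as a block (0.73, 0.00884). Casp1 passed without FcMR 24 h replicate 3 (0.72, 0.0374). The Nlrc4 result did not pass with limma on the authors' normalized values (0.0594) or without FcMR 4 h replicate 3 (0.0668). Casp1 and Pycard, which passed at 12 and 24 h but not at 4 h, are therefore not shown to differ between the times (adjusted p = 0.201 and 0.475).

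The isotype libraries serve as controls above and as the tested group here, so the comparisons share them. Untreated cells were sampled at 0 h only, and the isotype protein, the change of medium and the time in culture cannot be told apart. Most members were higher in isotype than in untreated cells at 4 h. Of the 10, 7 were called higher (20.4% of all genes tested) and 1, Pycard, lower (15.2%), with 35.6% of all genes called. At 12 h 7 members were higher (22%) and 1, Nlrp3, lower (19.6%), with 41.6% called. For 24 h the numbers were 5 (21.3%) and 1, again Nlrp3 (20.9%), with 42.2% called. Median log2 changes of the members were 1.06, 0.60 and 0.47, beside -0.00034, 0.033 and -0.037 over all genes. Libraries did not overlap for 8 members at each time, against 42.4%, 61.8% and 62.7% of genes. The fall of neutrophil and of mast cell and eosinophil markers given above ran along with these differences, and its part in them was not tested.

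**Figure D3:**
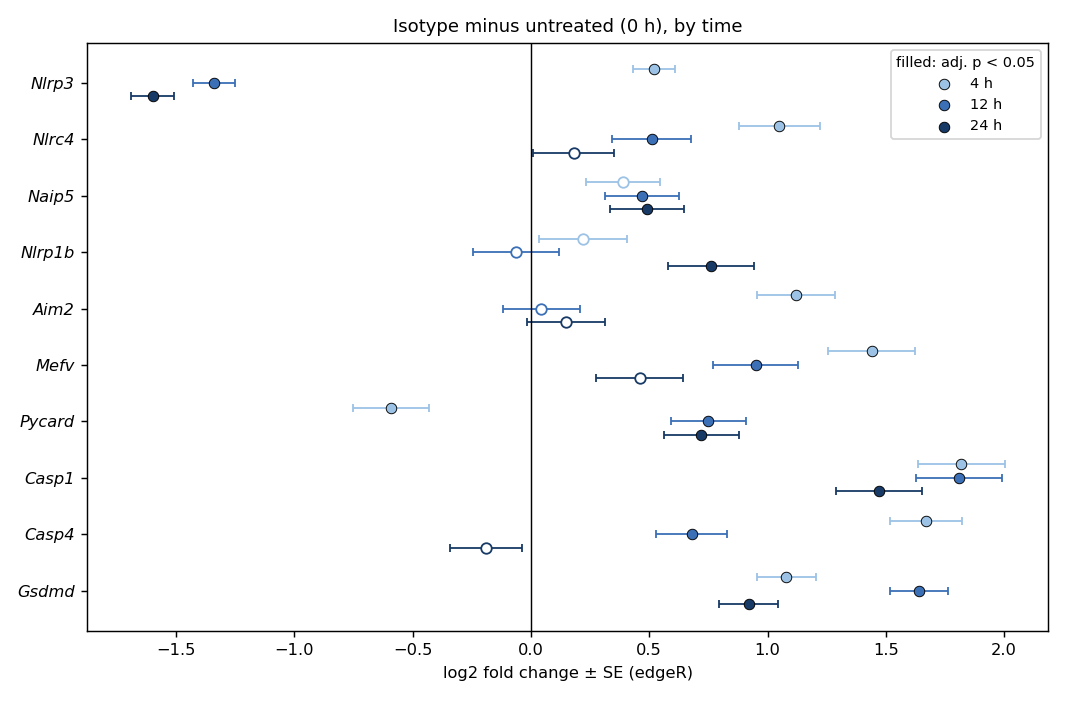
Isotype minus untreated log2 fold change (x axis) of the 10 members (rows) at 4, 12 and 24 h, with bars of 1 standard error; filled points passed an adjusted p of 0.05. Casp1 and Gsdmd stay right of 0 at all times, while Nlrp3 is right of 0 at 4 h and left of it at 12 and 24 h.

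Casp1 and Gsdmd, the executing protease and the pore, were called higher at all 3 times. Casp1 was at 38.0, 41.7 and 40.1 CPM in untreated cells and differed by 1.82 (SE 0.183, adjusted p = 3.96e-07), 1.81 (SE 0.182, 3.18e-07) and 1.47 (SE 0.181, 3.6e-06) at 4, 12 and 24 h on the log2 scale. Gsdmd started at 60, 49.4 and 55.1 CPM and differed by 1.08 (SE 0.123, 1.86e-06), 1.64 (SE 0.124, 7.72e-09) and 0.92 (SE 0.123, 9.2e-06). Both stood above all untreated libraries at every time.

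Casp4, Mefv, Nlrc4 and Aim2 had their largest difference at 4 h. Casp4, at 32.6, 37.4 and 36.0 CPM in untreated cells, was 1.67 higher at 4 h (SE 0.153, adjusted p = 1.18e-07) and 0.68 higher at 12 h (SE 0.150, 0.00132). Its 24 h value was -0.19 (SE 0.153, 0.33), and that difference passed only with the GC correction (-0.32, 0.0109) and with that correction and the replicate number together. Mefv went from 10.8, 13.4 and 14.5 CPM by 1.44 (SE 0.183, 6.77e-06), 0.95 (SE 0.180, 0.000373) and 0.46 (SE 0.184, 0.0557). Nlrc4 went from 13.8, 14.8 and 10.6 CPM by 1.05 (SE 0.170, 9.83e-05), 0.51 (SE 0.167, 0.021) and 0.18 (SE 0.171, 0.423). Aim2 was higher at 4 h alone (log2 1.12, SE 0.166, 3.9e-05), from 37.0, 40.7 and 35.1 CPM, with 0.044 and 0.15 at the later times (0.862 and 0.483). Whether these changes differ between the times was not tested for isotype against untreated.

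Nlrp3 and Pycard crossed. Nlrp3 stood at 166, 182 and 189 CPM in untreated cells, was 0.52 higher at 4 h (SE 0.0878, adjusted p = 0.000142) and then lower by -1.34 at 12 h (SE 0.0893, 1.59e-09) and -1.60 at 24 h (SE 0.0906, 2.22e-10). Pycard stood at 75.5, 65.2 and 60.6 CPM, was lower at 4 h (-0.59, SE 0.161, 0.00839) and higher at 12 h (0.75, SE 0.158, 0.000957) and 24 h (0.72, SE 0.158, 0.00127). With limma on the authors' normalized values the 12 h difference was 0.55 and did not pass (0.059). The sensor and its adaptor thus lay on opposite sides of the untreated level at all 3 times. Over all 21 libraries their log2 CPM correlated at -0.912, which describes libraries that share groups.

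Naip5 and Nlrp1b were called at fewer times. Naip5, at 32.6, 33.3 and 27.7 CPM untreated, differed by 0.39 (SE 0.157, adjusted p = 0.0657), 0.47 (SE 0.155, 0.0218) and 0.49 (SE 0.156, 0.0167). Without untreated replicate 3, the lowest library, neither the 12 h nor the 24 h call remained (0.0952 and 0.077), and the Nlrc4 call at 12 h was lost as well (0.109). Without isotype 12 h replicate 1 Naip5 did not pass at 12 h (0.0915). Nlrp1b rose at 24 h only (log2 0.76, SE 0.182, 0.00248), with 0.22 at 4 h (0.391) and -0.063 at 12 h (0.82).

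Set side by side, the values sort the members into patterns without a test between the comparisons. Casp4 and Mefv were higher with isotype at 4 h and higher again with FcMR at each time. Nlrp3 at 12 and 24 h lay below untreated with isotype, and with FcMR it was at 182 to 193 CPM at 12 h, which overlapped the untreated 166 to 189 CPM. At 24 h it was at 121 to 135 CPM with FcMR, wholly below untreated. Pycard with FcMR was at 61.9 to 86.0 CPM at 12 h and overlapped untreated too. Gsdmd was above untreated in both arms at each time, and its FcMR and isotype libraries overlapped at 12 and 24 h but not at 4 h.

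Per kilobase of transcript, a scale on which genes can be compared, untreated cells held most Nlrp3 (44.6 ± 2.93 CPM per kb, SD, n = 3). Gsdmd (30.6 ± 2.97), Casp1 (26.7 ± 1.24) and Casp4 (24.6 ± 1.70) followed and lay within the spread of their neighbours in that order. Pycard (17.7 ± 2.01) and Aim2 (13.2 ± 1.01) came next, and Naip5 (6.00 ± 0.591), Mefv (4.17 ± 0.622), Nlrc4 (2.77 ± 0.462) and Nlrp1b (1.83 ± 0.241) were lowest. With FcMR at 12 h the order began with Casp1 (160 ± 30.9 CPM per kb), Casp4 (96.9 ± 14.3), Gsdmd (88.4 ± 8.02) and Nlrp3 (46.3 ± 1.52), of which Casp4 and Gsdmd did not differ beyond their spread. Nlrp1b stayed lowest (0.592 ± 0.0349). The Pycard value per kilobase depends on the transcript model, since the one used has 3800 bases and the other annotated one 493.

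The members lie on both sides of the GC tilt that separated replicate libraries. Casp1 has the lowest transcript GC content (41.1%) and Gsdmd the highest (54.4%). Over the 21 libraries the within-group deviation of Aim2 (42.8% GC) correlated with the tilt at -0.942, that of Casp1 at -0.851, that of Nlrc4 at -0.822, that of Naip5 at -0.817 and that of Casp4 at -0.788. That of Gsdmd correlated at 0.906 and that of Nlrp3 (51.0% GC) at 0.6. These are descriptions over libraries whose scaling and tilt come from the same counts. Correcting each library for GC content brought the pooled within-group SD of log2 level from 0.212 to 0.0707 for Aim2, from 0.23 to 0.105 for Casp1 and from 0.153 to 0.0627 for Gsdmd. For Pycard it went the other way, from 0.204 to 0.326. The correction used its longer model, which is GC-poor (45.6%), while its deviation correlated with the tilt at 0.836. Its shorter transcript has 53.5% GC. Whether the GC value used misdirected the correction for Pycard was not tested, so its corrected values are a weak check. The direction of every member called in the FcMR comparisons was the same with the correction as without it.

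**Figure D4:**
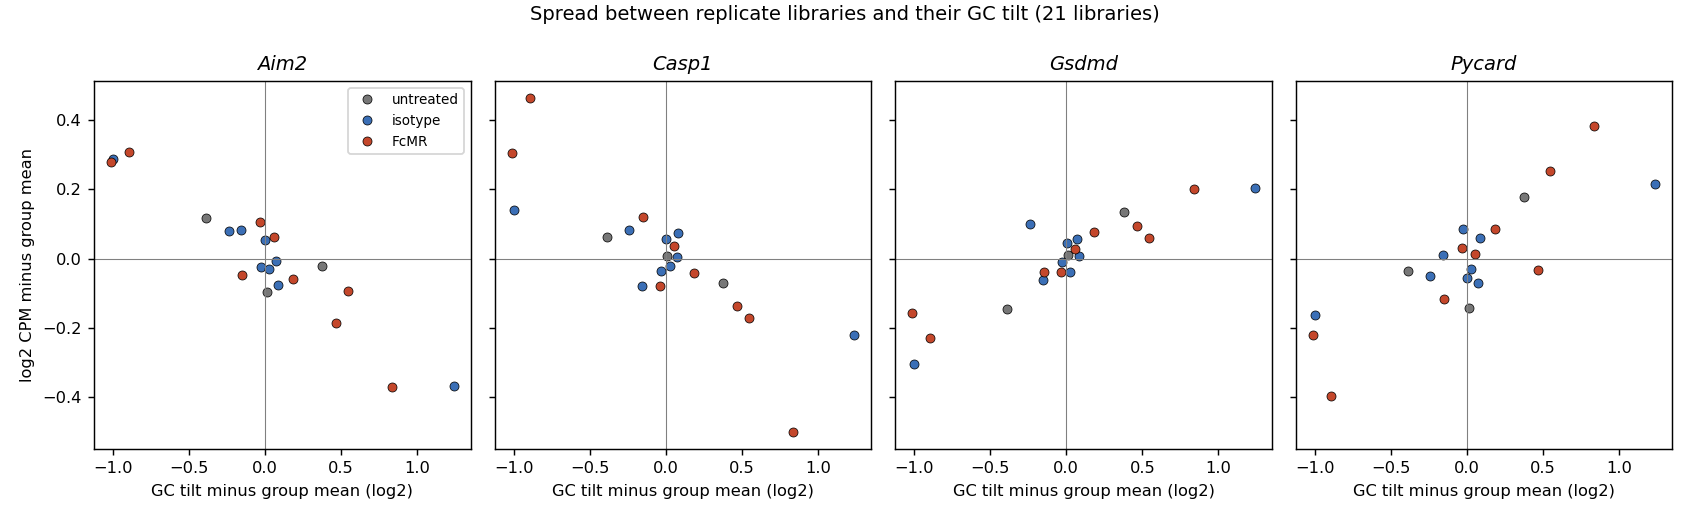
Within-group deviation of log2 CPM (y axis) against the library's GC tilt minus its group mean (x axis) for 4 members, with 21 libraries per panel coloured by treatment. Aim2 (r = -0.942) and Casp1 (-0.851) slope down, Gsdmd (0.906) and Pycard (0.836) slope up.

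Beside the members, 58 further genes of inflammasome and pyroptosis pathways were followed, of which 56 were in the table and 55 were tested. With FcMR, 19 rose and 8 fell at 4 h. At 12 h 18 rose and 8 fell, and 24 h gave 16 and 9. Of all genes tested 8.62%, 8.61% and 11.4% were called higher at these times, and 9.13%, 7.49% and 9.44% lower. The median log2 change of the list was 0.077, 0.10 and 0.18. The substrates and receptors held the largest differences. Il1b, the precursor that caspase-1 matures, went from 970 ± 179 to 5768 ± 262 CPM at 4 h (SD, n = 3), from 150 ± 6.92 to 2394 ± 419 CPM at 12 h and from 91.6 ± 8.37 to 1896 ± 235 CPM at 24 h. Its fold with FcMR was 5.95, 16 and 20.7 at these times (adjusted p = 4.3e-09, 2.72e-11 and 5.19e-12). Il1a, an alarmin of the same family, rose 6.36-fold, 10.8-fold and 7.95-fold (1.44e-07, 9.11e-09 and 1.71e-08). Il18, the other substrate, was at 13.6 ± 4.71 against 7.91 ± 2.06 CPM at 4 h and 8.63 ± 1.10 against 4.07 ± 0.237 CPM at 12 h (log2 0.83 and 1.09, adjusted p = 0.0166 and 0.0022). The libraries of both groups overlapped at 4 h for Il18 but not at 12 h. Il18 did not pass at 24 h (log2 0.29, 0.467).

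Receptors and antagonists went both ways with FcMR. Il18r1, a subunit of the interleukin-18 receptor, was lower at each time (-1.07, -1.86 and -1.67, adjusted p = 0.00233, 3.55e-05 and 1.5e-05). Its group means in these comparisons were at most 5.12 CPM. Il1rn, the interleukin-1 receptor antagonist, was higher by 1.11, 0.79 and 0.41 (1.3e-06, 3e-05 and 0.00804). Il1r1, the signalling receptor, was lower at 4 h (-1.02, 0.0195), with 0.41 at 12 h (0.317) and 0.71 at 24 h (0.0532). Its 4 h means were only 1.7 CPM with FcMR and 3.54 CPM with isotype. Il1r2, a decoy receptor, was higher by 0.78 at 12 h and by 1.49 at 24 h (0.00163 and 3.78e-06).

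Of 20 licensing and regulatory genes, 7 rose and 4 fell at 4 h, and 6 rose and 5 fell at each later time, to be read beside the shares of all genes given above. The guanylate-binding proteins, which open bacterial membranes to caspase-11 and Aim2, were among those that rose. Gbp5 went from 476 ± 7.32 to 1479 ± 26.5 CPM at 4 h and was higher by 1.63, 2.20 and 1.84 (adjusted p = 3.14e-06, 7.63e-08 and 3.67e-07). Gbp2 was higher by 0.85, 1.10 and 2.48 (0.000471, 2.95e-05 and 1.95e-09). Those that fell against isotype include P2rx7, the ATP-gated channel whose opening triggers NLRP3, at -0.74, -0.77 and -0.55 (8.41e-05, 2.52e-05 and 0.000462). Mean P2rx7 at 12 h was 32.7 CPM with FcMR and 55.7 CPM with isotype, both above the untreated 19.2 CPM. By 24 h it had risen further in both arms, to 55.1 CPM with FcMR. Only at 4 h was the FcMR mean of P2rx7 below the untreated mean. Txnip, reported to bind NLRP3, fell by 0.22, 0.67 and 0.92 (0.0422, 3.5e-06 and 5.08e-08). Nlrc3, an NLR protein known as a negative regulator, was lower too (-1.2, -0.68 and -1.14, with 0.00244, 0.0333 and 0.000587). Its levels were low, with means of 1.36 CPM with FcMR and 3.23 CPM with isotype at 4 h. By 24 h these were 4.91 and 10.7 CPM, both above the untreated 2.56 CPM.

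Among the 9 tested sensors and partners, 2 rose and 1 fell at 4 h, while 3 rose and 1 fell at each later time. The shares of all genes given above apply here too, and with 9 genes nothing is read from the counts. Zbp1, a sensor of Z-form nucleic acids, was higher by 1.22, 0.55 and 0.59 (adjusted p = 1.91e-06, 0.00285 and 0.00138). Nlrp10 was lower than with isotype at 12 and 24 h (-1.07 and -1.17, with 0.00151 and 0.000629). Its means at 12 h were only 2.57 CPM with FcMR and 5.47 CPM with isotype. Of 8 other caspases and death proteins, 2 were higher and 1 lower at each time. One of those higher at each time was Mlkl, the pore former of necroptosis (0.81, 0.71 and 0.43, with adjusted p = 8.58e-05, 0.000186 and 0.0109). Of 8 inhibitors and membrane repair genes, 3 were higher at 4 h and 1 at 12 h, and 1 was lower at 24 h. Mlkl and Txnip lie outside the rule for named genes and were chosen after their values had been seen, as was Il1rn.

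**Figure D5:**
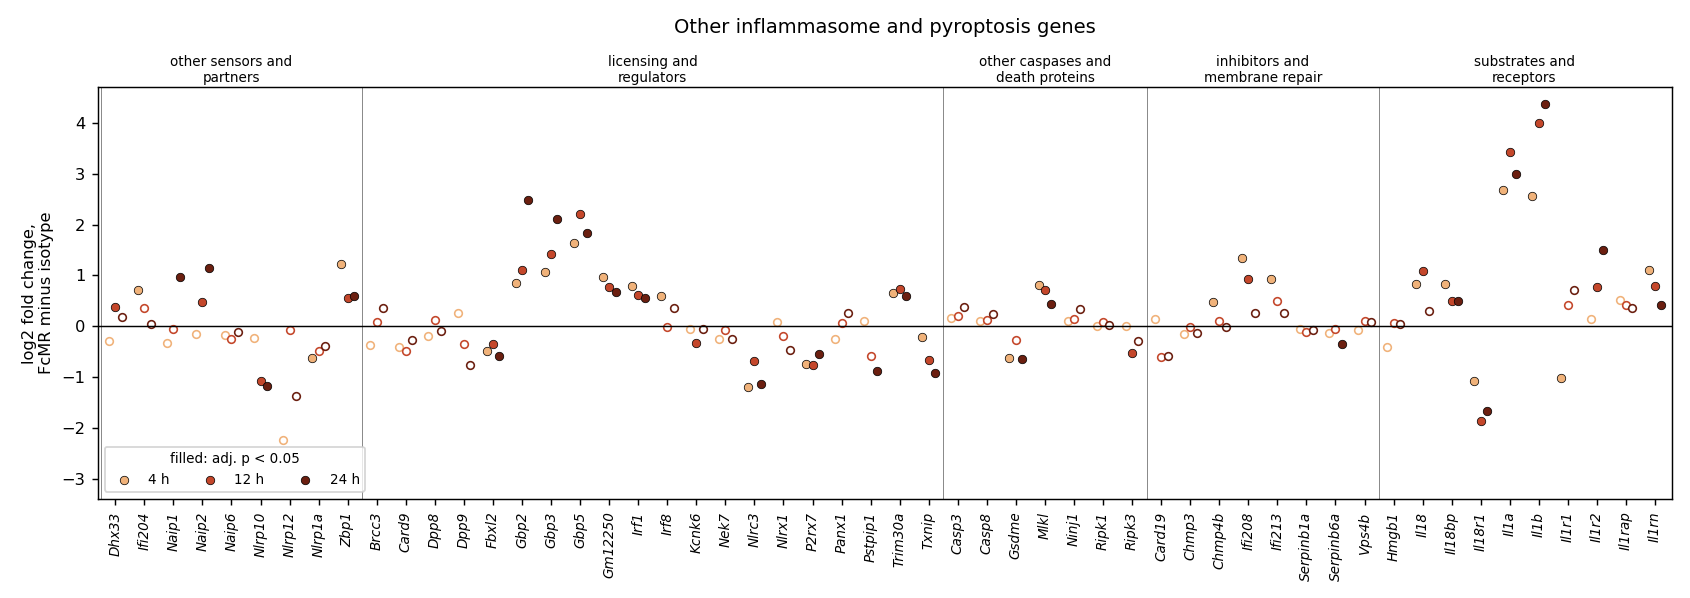
FcMR minus isotype log2 fold change of pathway genes (x axis, by role; 1 tested gene is not drawn) at 4, 12 and 24 h; filled points passed an adjusted p of 0.05. Il1a and Il1b lie highest, the Gbp genes follow, and Il18r1 is the lowest of the filled points.

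Isotype against untreated, 30 of the 55 rose and 7 fell at 4 h. The later times gave 29 and 8 (12 h) and 27 and 8 (24 h). Over all genes tested 20.4%, 22% and 21.3% were higher and 15.2%, 19.6% and 20.9% lower. Gbp5 went from 12.2 ± 3.17 to 476 ± 7.32 CPM at 4 h and was at 47.6 ± 0.940 CPM by 24 h. Zbp1 went from 10.7 ± 2.14 to 124 ± 17.4, 226 ± 6.73 and 121 ± 3.39 CPM. Ifi213 and Ifi208, which encode proteins of the PYHIN family to which Aim2 belongs, were at 1.2 ± 0.382 and 0.612 ± 0.443 CPM in untreated cells and at 29.3 ± 5.73 and 19.6 ± 4.73 CPM at 4 h. Il1b rose to 970 ± 179 CPM at 4 h from 105 ± 12.8 CPM and was back at 91.6 ± 8.37 CPM by 24 h (log2 -0.19, adjusted p = 0.302). Il1r2 fell from 438 ± 33.6 to 40.8 ± 5.82, 6.43 ± 0.860 and 4.43 ± 0.413 CPM. Il18 fell from 11.9 ± 0.764 to 7.91 ± 2.06, 4.07 ± 0.237 and 4.1 ± 0.948 CPM (adjusted p = 0.0462, 2.29e-05 and 4.11e-05). Il18r1 fell from 13.5 ± 1.33 to 3.71 ± 0.501, 1.74 ± 0.149 and 5.12 ± 0.690 CPM. Ripk3, a kinase of necroptosis, was lower at 4 h (-0.84, adjusted p = 0.000368), not called at 12 h (-0.062, 0.779) and higher at 24 h (0.54, 0.00656). Nlrp12 was lower at 12 h (-1.69, 0.0309) from 1.21 ± 0.509 CPM, with -1.33 at both 4 h (0.132) and 24 h (0.102), close to the level of 3 counts. Neutrophils express Il1r2 as well, and their summed markers fell over the same groups, which was not tested as a source of the difference.

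Over the 21 libraries, Nlrp3 was followed most closely, among 8594 genes searched, by Rab11fip1 (Pearson r of log2 CPM 0.987, Spearman coefficient 0.949), Sdc4 (0.984, Spearman 0.991) and Lcp2 (0.978, Spearman 0.952). For Casp4 these were Abracl (0.989, Spearman 0.977), Ptgs2 (0.976, Spearman 0.986) and Il1a (0.973, Spearman 0.986), the last a gene of the pathway list. For Nlrp1b they were Cd200r1 (0.963), Pgap1 (0.944) and Hip1 (0.938). Mefv was closest to Tarm1 (0.967), Irak3 (0.964) and Cct3 (0.964), and Nlrc4 to Slc31a1 (0.968), Trip13 (0.943) and Fam20b (0.941). Casp1 lay nearest to Exoc6b (0.974), Tcp11l1 (0.972) and Cd200 (0.968), and Gsdmd to Arhgef40 (0.984), Uba7 (0.967) and Tapbp (0.962). Pycard was nearest to Rab11fip5 (0.964), Myo7a (0.962) and Sept8 (0.957), Aim2 to Rnf139 (0.977), Rap2c (0.974) and Kynu (0.973), and Naip5 to Pign (0.915), Vps45 (0.902) and Xpo1 (0.894). Among the members themselves, Mefv and Casp4 correlated at 0.867, Nlrc4 and Mefv at 0.852, and Nlrc4 and Casp1 at 0.843. Nlrp1b and Mefv correlated at -0.795. All of these values share the group structure, and those of Aim2, Casp1, Nlrc4, Naip5, Casp4, Pycard and Gsdmd share the GC tilt most. The other members were less tied to it, with correlations of 0.6 for Nlrp3, -0.433 for Nlrp1b and 0.195 for Mefv.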

How the data were processed

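Members and lists were chosen with earlier results of these data known. RNA was sequenced as 75 bp single-end TruSeq libraries, per the labels' protocols, with 3 libraries in each of 7 groups taken from the sample titles. CASAVA 1.8.2, kallisto 0.44.0, DESeq2 and the builds mm10 and GRCm38 are named in the submitters' processing notes, with no role or order given, and the annotation is not given in the sources used here. The authors deposited estimated counts per gene as whole numbers (23250 genes, lowest row sum 10), so rounding changed nothing. They also deposited a normalized signal on a linear scale, which from the values is the count divided by a factor per gene and library. That table served the limma alternative alone, as log2 of the value plus 1. Estimated counts can divide reads between near-identical genes.

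Symbols, positions, transcript lengths and GC content come from GENCODE M21 (GRCm38), in which 23206 IDs had a symbol and 21250 matched with their version. Length and GC content are those of the longest APPRIS principal transcript, else of the longest transcript. Counts were tested with edgeR 4.0.16 (R 4.3.3) by its quasi-likelihood F test in 1 fit of all 21 libraries, with TMM factors and filterByExpr (minimum count 10), which left 13468 genes. The threshold for a call was 0.05 on the p-value after Benjamini-Hochberg adjustment, standard errors are the log2 fold change divided by the root of F, and levels are CPM after TMM scaling. The comparisons were FcMR against isotype and isotype against untreated, each at 3 times, and whether the FcMR difference at 12 and 24 h departed from that at 4 h, in 1 joint test. Totals were 5532225 to 66729533 counts, and reads carry no molecular identifiers. No replicate pair agreed within sampling noise (lowest chi-square per degree of freedom 2.96).

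Named genes are the 10 members, the 3 called pathway genes highest and lowest in each comparison, and for each member the 3 genes of highest Pearson r whose mean log2 CPM reached 3 (prior count 2). Of the 58 pathway genes, Nlrp6 and Gsdmc were not matched to a row and Casp12 did not pass the filter. One further gene of the list counts in the totals but is not reported by name here. Irgb10, Pydc3 and Pydc4 were read as Gm12250, Ifi208 and Ifi213. Alternatives were RLE factors, no filter, DESeq2 1.42.0, limma 3.58.1, the replicate number as a block, a GC correction (a smooth with 5 degrees of freedom per library as an offset) alone and with the block, only the libraries compared, leaving out each library, and leaving out the 2 libraries whose numbers stand in each other's place.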

Additional observations from a re-analysis of the deposited data

Results flagged for a closer look

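The FcMR difference of Nlrc4 changed between the times by the joint test of 12 and 24 h against 4 h (edgeR, adjusted p = 0.00955). Aim2 passed this test with the GC correction and Mefv with the replicate number as a block. The log2 difference went from -0.08 (4 h) to 0.86 (12 h) and 0.99 (24 h). FcMR libraries were above isotype libraries in all 3 replicates at 12 and 24 h, and the groups overlapped at 4 h. With the GC correction the change from 4 to 24 h was 0.87 (adjusted p = 0.00041). Without FcMR 4 h replicate 3 it was 0.97 (0.0668), and with limma on the authors' normalized values 0.94 (0.0594).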

How the results depend on the processing

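Of 1140 values of single members under the alternatives, 1091 kept their side of the threshold, 26 gained a call and 23 lost one. The sign changed in 31, of which 0 were called under either setting. Under the GC correction the number of members called with FcMR at 4 h was 7 in place of 4, also with the replicate block, since Aim2, Casp1 and Gsdmd passed. For isotype against untreated at 12 h, limma called 5 members in place of 8 (without Nlrc4, Naip5 and Pycard). For the test over time, in which 1 member passed, limma called 0 (3 members at an unadjusted p under 0.05, DESeq2 1), the replicate block 2 (Mefv added, adjusted p = 0.00884), the GC correction 2 (Aim2 added, 0.0104) and both together 3. Leaving out 1 library gave 0 to 2 for that test: 0 in edgeR without FcMR 4 h replicate 3 (3 at an unadjusted p under 0.05), and 2 without FcMR 24 h replicate 3, where Casp1 passed (0.0374). Elsewhere that range was 3 to 5, 6 to 7 and 5 to 7 members for FcMR at 4, 12 and 24 h, and 8 to 9, 6 to 8 and 5 to 7 for isotype. The cause of these changes was not tested. Mefv for isotype at 24 h (adjusted p = 0.0557) passed under RLE factors (0.035), DESeq2 (0.0331), limma (0.0476), the block (0.00672), the block with the GC correction (0.015), only the compared libraries (0.0275) and without isotype 24 h replicate 1 (0.0264). Naip5 for isotype at 4 h (0.0657) passed with the block (0.0263) and without isotype 4 h replicate 3 (0.0158).

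Over all genes tested, same-numbered libraries deviated together only weakly: the mean correlation of their deviations was between -0.0708 and 0.106 over the 6 comparisons. Single genes can depart from this. Mefv, looked at after its values had been seen, had its highest level in replicate 3 in every group. Whether this order moved its results under the replicate block was not tested. No label ties a number to a mouse or day, so the numbers were not taken as pairs. Depth limits Nlrp1b most, with 17 counts in its lowest library, and 3 counts correspond to 0.045 to 0.542 CPM before TMM scaling.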
